A study of Mus musculus with 2 samples.

Results

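The genes described here are 7 genes of secreted proteins of the acute-phase response, Lcn2, Trf, Cp, Hp, Saa3, Ptx3 and Slpi, out of 27999 genes listed in each of 2 droplet-based single-cell RNA-sequencing (scRNA-seq) libraries of mouse lung. The 7 genes were chosen by their levels and ratios in an earlier analysis of the same libraries, so every value below is a description and no value is a test of that choice. Both libraries came from whole lungs of female FVB/NJ mice, 10 weeks old when Met-1 cells (a line from a mammary carcinoma of the mouse) were placed in the tail vein. One mouse gave the lung with few metastases at week 1 (low burden), a different mouse gave the lung with many at week 3 (high burden), and the labels give both the same batch. Cells injected into a vein reach the lung without a primary tumor, and Met-1 is a single cell line. With 1 mouse per group there is no spread between mice, so the burden, the week, the mouse and the library cannot be told apart. Intervals in the text are 95% intervals and cover counting error only.

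Acute-phase proteins are secreted in larger or smaller amounts during inflammation and injury, mostly by the liver, and many are also made by epithelia, macrophages and stromal cells at the site of the injury. Interleukin-6 acting through STAT3, interleukin-1 and TNF acting through NF-kB, and C/EBP factors are the textbook inducers. Of the 7 proteins, lipocalin-2 (Lcn2) takes iron away from bacteria by binding their siderophores, transferrin (Trf) carries iron in plasma, ceruloplasmin (Cp) is a copper-bound ferroxidase, and haptoglobin (Hp) captures free hemoglobin. Serum amyloid A3 (Saa3) and the long pentraxin Ptx3 take part in innate defence, and Slpi inhibits neutrophil elastase and related proteases.

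On mm10 (GRCm38), as annotated in GENCODE M21, Lcn2 lies at chr2:32384633-32388252 and Slpi at chr2:164354070-164389095, both on the minus strand. Cp lies at chr3:19957054-20009145 and Ptx3 at chr3:66219910-66225805, both on the plus strand. Saa3 lies at chr7:46711998-46715700, Hp at chr8:109575128-109579172 and Trf at chr9:103204001-103230444, all on the minus strand. All 7 are protein-coding. Cp overlaps Hps3 and Ptx3 overlaps Veph1 on the opposite strand, Slpi overlaps Mir7678 and Trf overlaps Gm20425 on its own strand, and how the authors counted such reads is not given in the sources used here. Saa3 has close relatives, Saa1 and Saa2, with which reads could be shared.

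Promoter sequences of RefSeq (GRCm38.p6) were given for 5 of the 7 genes, with 2 starts for Cp. In the 250 bases before the start, a C/EBP-like motif (TTGCNNAA, either strand) was found in all 5 genes, at 1 of the 2 Cp starts, and it was found in 9.56% of 32851 promoters of the same length. A kB-like motif (GGAANNNCC, either strand) was found for Saa3 and at the same Cp start, against 15.7% of all promoters, and a STAT-like motif (TTCNNNGAA, either strand) was found in none of the 5, against 7.02%. A match describes these letters and is not a binding site. The matches are printed because they are the 1 sequence feature found in every member that had a promoter entry, each 5′ to 3′ on the gene's strand with the motif in capitals and up to 11 bases on each side.
Lcn2: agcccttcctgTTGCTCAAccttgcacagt
Saa3: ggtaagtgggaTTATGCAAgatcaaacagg
Slpi: gaatttgtaTTGAGCAAtaggttagagt
Cp: attagttactcTTTTGCAAcattaaattgt
Ptx3: gtggtttaacaTTGTGCAAcctcttcagct
The Lcn2 stretch is at chr2:32387937-32387966, with the motif beginning 216 bases before the start. The Saa3 stretch is at chr7:46715757-46715786, 99 bases before, and the Slpi stretch at chr2:164356730-164356757, 241 bases before. The Cp stretch is at chr3:19957168-19957197, 70 bases before the second start and inside an annotated Cp exon of other transcripts. The Ptx3 stretch is at chr3:66219819-66219848, 57 bases before its start. The Lcn2 stretch also touches an exon of another Lcn2 transcript.

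The low-burden library held 2668 cells and 14041471 unique molecular identifier (UMI) counts and the high-burden library 3121 cells and 52723173 UMIs, with medians of 3971 and 13795 UMIs per cell. After the study's limits on detected genes and mitochondrial reads, 2473 and 3033 cells remained. They were sorted into 15 classes by marker genes that include none of the 7, and 2102 and 2588 cells received a class. A class is called by the cell type whose markers it carried ("AT2-like" and so on, shortened to AT2 and the like). The high-burden library held 1349 metastatic cells, gated on genes such as Sox9, Hmga2 and Cdkn2a, and the low-burden library held 0 of 2473, which allows a share of up to 0.121%. Between low and high burden the count of AT2 cells, the surfactant-making alveolar epithelium, was 112 and 54, of fibroblasts 405 and 33, of alveolar macrophages 380 and 4, and of other monocytes or macrophages 82 and 732. The transcript of the PYMT oncogene, which Met-1 cells carry, gave 0 UMIs at low burden and 3317 at high burden. It did not separate the metastatic class from the others, standing at 64.5 CPM (UMIs per 1000000 UMIs) there, 67.1 in lymphocytes and between 58.4 and 77.5 over the high-burden classes, so the class rests on the other markers. The libraries shared 11 cell barcodes.

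Levels are given as CPM, the UMIs per 1000000 UMIs of the class. These counts are not corrected for gene length, so levels are compared within a gene and not between genes. RNA released from broken cells is caught in every droplet, and lymphocytes, which are not known as a source of these proteins, were used as the yardstick. In 63 high-burden lymphocytes (median 6625 UMIs) Lcn2 stood at 148 CPM, Trf at 112, Saa3 at 83.4, Slpi at 48.8, Cp at 26.4, Hp at 18.3 and Ptx3 at 4.07 (2 UMIs). In 220 low-burden lymphocytes (median 3223.5 UMIs) Lcn2 and Saa3 stood at 1.16 CPM each (1 UMI each), Trf at 54.6, Slpi at 40.6, Hp at 31.3, Cp at 6.96, and Ptx3 had 0 UMIs (3 UMIs would be 3.48 CPM). A level near that of the lymphocytes of the same library is read below as background. For Slpi, Hp and Trf this yardstick can be too high at low burden, where some classes lay clearly below the lymphocytes. Fibroblasts stood at 14.1 CPM of Slpi and 15.1 of Hp, and smooth muscle cells or pericytes at 6.13 of Trf.

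**Figure D1:**
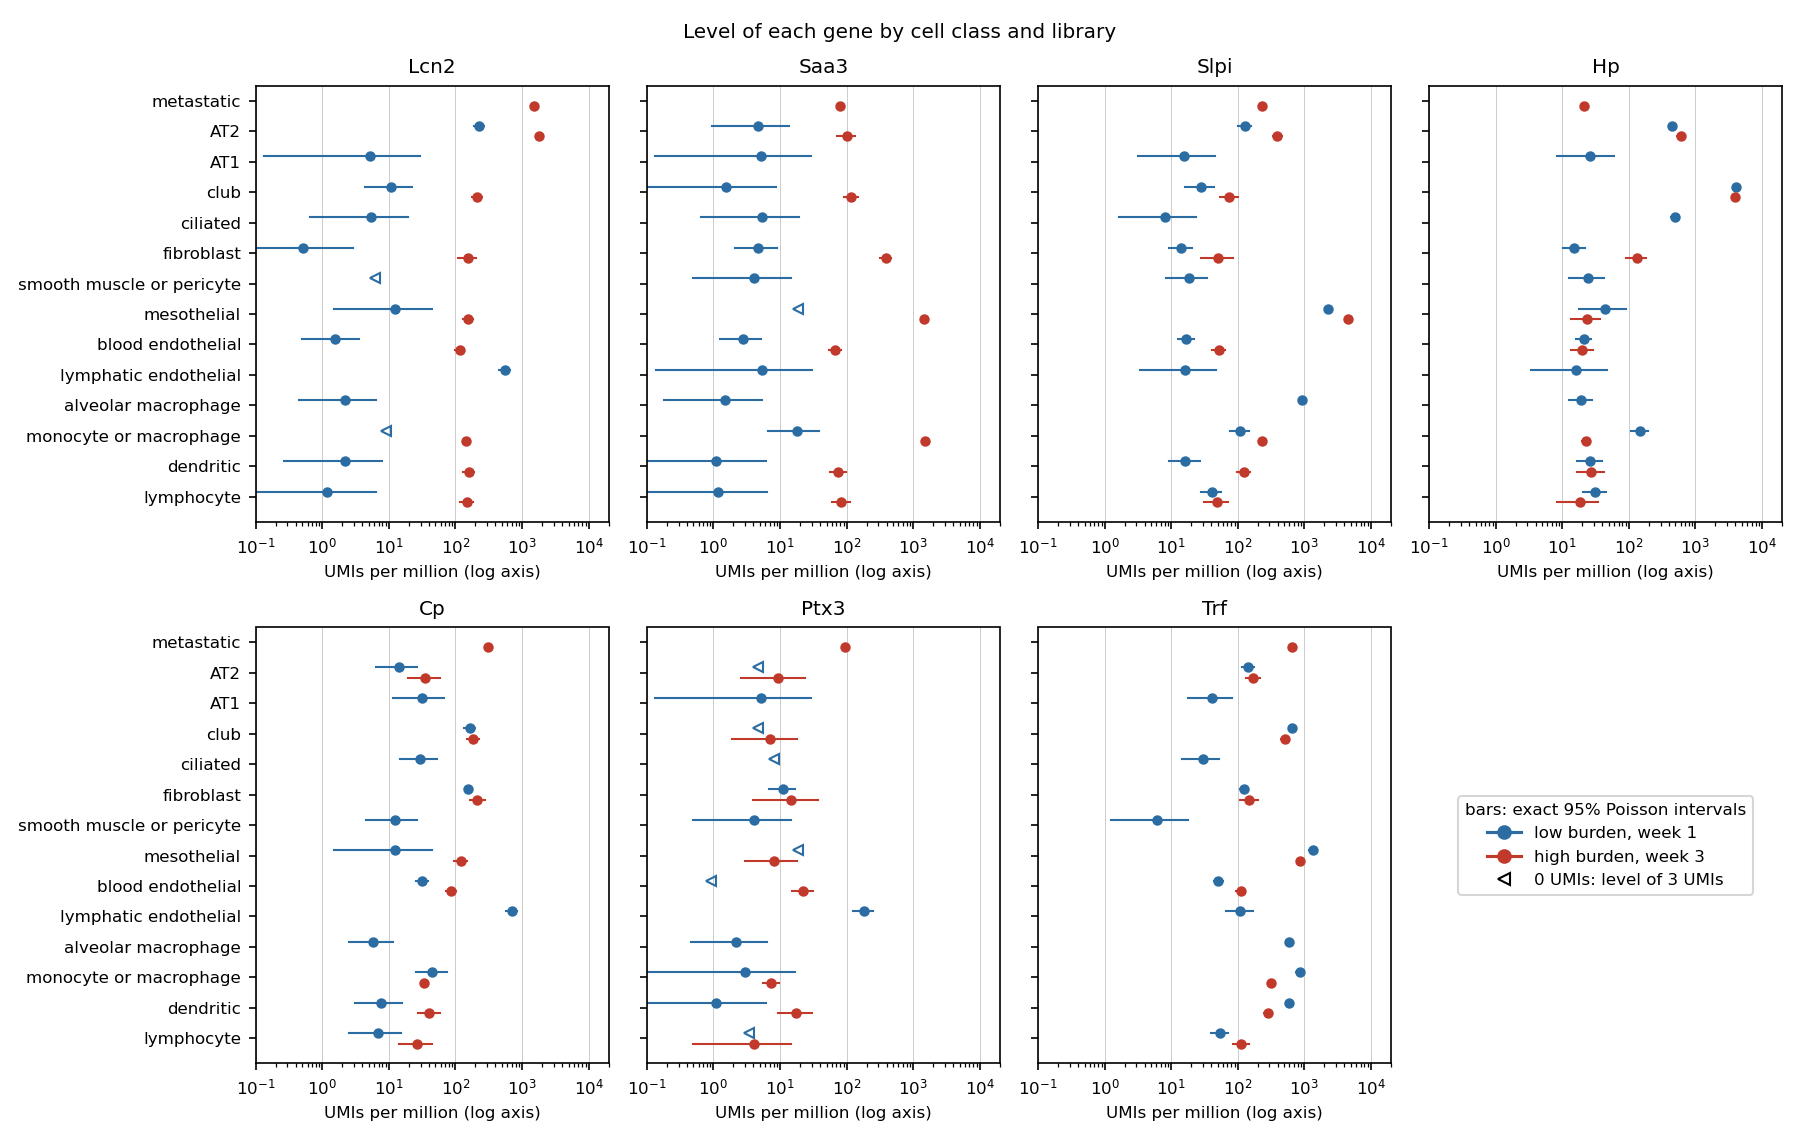
Level of each gene (CPM, log axis) in every class with at least 20 cells, blue for low burden and red for high burden, with exact 95% Poisson intervals as bars and open triangles at the level of 3 UMIs where no UMI was counted. Lcn2, Cp, Ptx3, Slpi and Trf of the metastatic class lie above the lymphocyte row at the bottom of each panel, while Saa3 and Hp of the metastatic class lie beside it.

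The metastatic class stood above the lymphocytes of its library for 5 of the 7 genes. On the log2 scale Lcn2 was higher by 3.34 (interval 3.01 to 3.69), Cp by 3.53 (2.75 to 4.44), Trf by 2.57 (2.19 to 2.98, which is 5.94-fold) and Slpi by 2.23 (1.66 to 2.87). Ptx3 was higher by 4.56 (2.71 to 7.61), with only 2 UMIs in the lymphocytes. Saa3 (−0.05, −0.49 to 0.44) and Hp (0.24, −0.70 to 1.37) were not distinguishable from the lymphocyte level. Among classes with at least 20 cells, Cp and Ptx3 had their highest high-burden level in the metastatic class, Lcn2 in AT2 cells, Slpi and Trf in mesothelial cells, Hp in club cells and Saa3 in monocytes or macrophages. The place of Lcn2 rests on 1 AT2 cell, since without the top cell of each class AT2 cells stood at 1389 CPM and the metastatic class at 1482. That of Saa3 rests on the cells with much Prg4, Alox15, Cd5l and Fcna, without which mesothelial cells were highest. The metastatic class held 62.7% of all high-burden UMIs, and 83.6% of those of Lcn2, 82.6% of Ptx3, 80.8% of Cp, 71.5% of Trf, 44.6% of Slpi, 16.0% of Hp and 9.75% of Saa3.

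**Figure D2:**
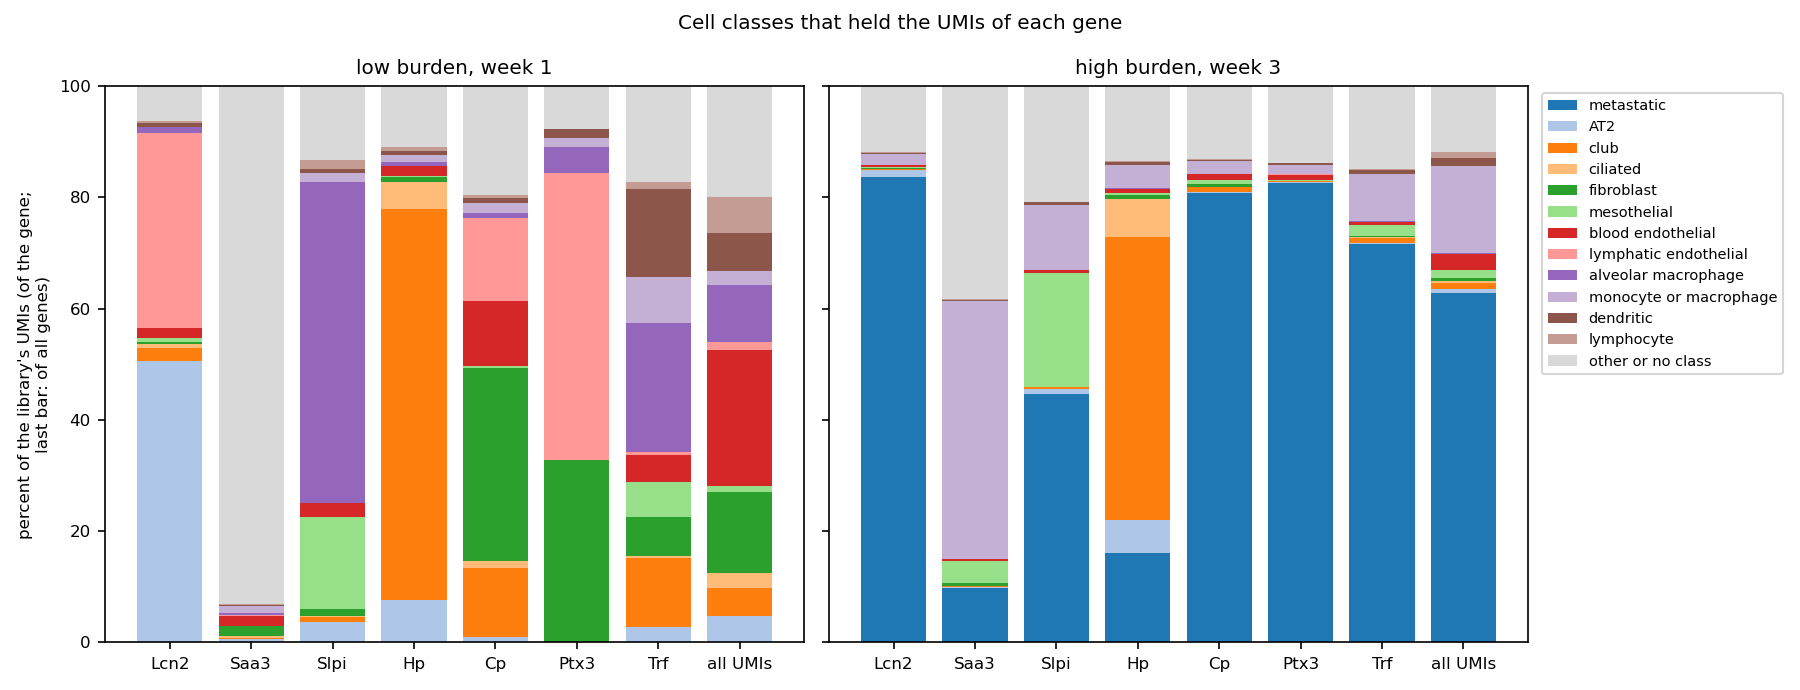
Percent of each gene's UMIs held by each class in the low-burden (left) and high-burden (right) library, with the share of all UMIs as the last bar. Metastatic cells hold over 70% of Lcn2, Cp, Ptx3 and Trf at high burden, club cells hold most of Hp in both libraries, and cells of no class hold most of Saa3 at low burden.

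Lcn2 was counted at 21.6 CPM over all low-burden cells (287 UMIs) and at 1125.8 over all high-burden cells (57940 UMIs), and at 495.5 with the metastatic class left out. Most of that remainder, 6417 of 9503 UMIs, was in cells of no class, at 1117 CPM, and the other classes together stood at 229.7 CPM. At low burden it was nearly confined to 2 classes. Lymphatic endothelial cells stood at 550.5 CPM (448 to 669, 27 cells), AT2 cells at 226 (191 to 266), and the next class of at least 20 cells, mesothelial cells, at 12.5 (2 UMIs). At high burden AT2 cells stood at 1788 CPM (1663 to 1919), the metastatic class at 1500.1 (1487 to 1514), and 6 of the 7 other classes with 20 cells between 117 and 159. Club cells, at 211 CPM, made the seventh. Those 6 classes include the lymphocytes, so their levels are at the background of that library. Their ratios were large all the same, 128-fold in the lymphocytes themselves (log2 interval 4.48 to 12.3, with 1 UMI at low burden). Neutrophils stood at 4341 CPM in 11 cells, of which 1 cell held 93.6% of the UMIs.

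In AT2 cells Lcn2 was 7.90-fold higher at high burden (log2 2.98, 2.72 to 3.25). Lcn2 UMIs were found in 55.4% of low-burden AT2 cells (45.7% to 64.8%) and 90.7% of high-burden ones (79.7% to 96.9%), with median depths of 5490 and 6573.5 UMIs. With each cell thinned to 3000 UMIs the shares were 38.5% and 74.1%, against 36.5% in high-burden lymphocytes, which were at 65.1% unthinned. The AT2 level at high burden was uneven: 1 of 54 cells held 190 of the 761 Lcn2 UMIs, and without the top cell of each library the log2 ratio was 2.73. The median AT2 cell had 1.39 Lcn2 UMIs per 10000 at low burden and 3.71 at high burden. Metastatic cells were uneven too, with a median of 5.30 per 10000, a ninetieth percentile of 43.6, and 52.9% of the UMIs in the top 10% of the cells.

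**Figure D3:**
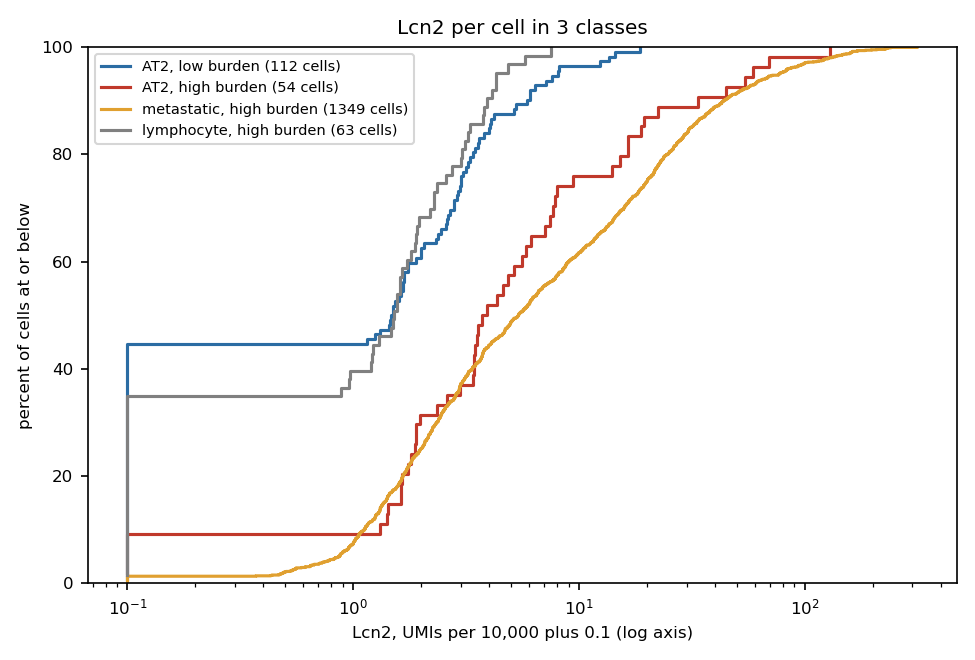
Cumulative percent of cells (vertical axis) by Lcn2 UMIs per 10000 plus 0.1 (log axis) for AT2 cells of both libraries, metastatic cells and high-burden lymphocytes. The high-burden AT2 curve (54 cells) runs to the right of the low-burden one (112 cells) and beside the metastatic one (1349 cells).

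Trf, the iron carrier, was measured in many classes at low burden. Mesothelial cells, which line the pleura, stood at 1361 CPM (1186 to 1554), monocytes or macrophages at 860.3 (764 to 966), club cells, the secretory cells of the airway, at 662 (601 to 728), dendritic cells at 587 (538 to 638) and alveolar macrophages at 581 (542 to 623). In the high-burden library Trf was lower in monocytes or macrophages, at 314 CPM (log2 −1.45, −1.63 to −1.27), in dendritic cells, at 282 (−1.05, −1.29 to −0.82), and in mesothelial cells, at 859.6 (−0.66, −0.89 to −0.43). Club cells stood at 508 CPM (−0.38, −0.60 to −0.16). The metastatic class stood at 665 CPM (656 to 674), and 72.7% of its Trf UMIs were in the top 10% of its cells. In blood endothelial cells Trf stood at 51.2 CPM at low burden, beside 54.6 in lymphocytes, and in both classes it was 112 CPM at high burden.

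The monocyte or macrophage class differed in make-up between the libraries. Of 82 low-burden cells, 33 had fewer than 10 UMIs per 10000 of C1qa and C1qb, subunits of the complement protein C1q that mark tissue macrophages, and of 732 high-burden cells 25 did. Ly6c2, a marker of classical monocytes, stood at 336 CPM in the class at low burden and 16.4 at high burden. In the cells with 10 or more, Trf stood at 973 and 313 CPM and Hp at 29.3 and 22.1. In the cells below it, Trf stood at 682 and 369 CPM and Hp at 333 and 52.7, so the Trf difference was present on both sides of the split and most of the low-burden Hp UMIs (43 of 49) were below it.

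Cp, the ferroxidase, was highest at low burden in lymphatic endothelial cells, at 698 CPM (582 to 829, 27 cells). Club cells stood at 163 CPM (134 to 197) and fibroblasts at 156 (139 to 174). Those 2 classes stood at 184 and 214 CPM at high burden, with log2 ratios of 0.17 (−0.23 to 0.58) and 0.46 (0.03 to 0.87). The metastatic class stood at 305 CPM (299 to 311). In mesothelial cells Cp was counted with 2 UMIs at low burden and 88 at high burden, 12.5 and 119.9 CPM (log2 3.26, 1.37 to 6.33). Blood endothelial cells stood at 31.5 and 86.8 CPM (1.47, 1.08 to 1.86), and 24.6% of the high-burden UMIs were in 1 cell.

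Hp, the hemoglobin-binding protein, had its highest levels in airway and AT2 cells in both libraries. It was not confined to them, and neutrophils held 12 UMIs in 13 low-burden cells and 40 in 11 high-burden cells. Club cells stood at 4101 CPM (3947 to 4260) and, in the high-burden library, at 3914 (3752 to 4080), a log2 ratio of −0.07 (−0.15 to 0.01) over 27 cells each. Ciliated cells stood at 499 CPM at low burden (55 cells) and 1504 at high burden (14 cells, 1 of which held 35.6% of the UMIs). AT2 cells stood at 449.6 and 608 CPM (0.44, 0.19 to 0.68). Fibroblasts stood at 15.1 CPM (29 UMIs in 405 cells) and 131 (36 UMIs in 6 of 33 cells, log2 3.11, 2.37 to 3.87). Over all cells Hp was the 1 member at least 2-fold lower at high burden, at 285 and 84.4 CPM (−1.76, −1.82 to −1.69), while with the metastatic class left out the ratio was −0.58 (−0.65 to −0.52). The share of cells that were club cells was 1.09% at low burden and 0.890% at high burden, and their share of all UMIs 4.89% and 1.10%.

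Saa3, a serum amyloid A made outside the liver, was counted at 37.9 CPM over all low-burden cells and 519.9 over all high-burden cells (26756 UMIs). In monocytes or macrophages it stood at 18.0 CPM (6 UMIs) and 1527 (1500.5 to 1554), and in mesothelial cells at 0 of 160212 UMIs and at 1454 CPM (1368 to 1543), at least 77.6-fold above the level of 3 UMIs (18.7 CPM). Fibroblasts stood at 4.69 and 385 CPM, but 1 of 33 high-burden cells held 83.0% of the UMIs. The metastatic class, AT2, club, dendritic and blood endothelial cells stood between 66.9 and 117 CPM at high burden, around the 83.4 of lymphocytes.

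Most Saa3 came from few cells. At high burden 93 of 3033 cells had 20 or more Saa3 UMIs per 10000, and they held 84.8% of all Saa3 UMIs. The threshold was set after the values were seen, with the lowest cell inside at 20.2 per 10000 and the highest outside at 17.9. Of the 93 cells, 44 were gated as monocytes or macrophages, 38 had no class, 6 were mesothelial and 3 metastatic. The genes that led in these cells against all other high-burden cells, after Saa3 itself, were Retnla, Prg4, Marco, Alox15, Cd5l, Wfdc17, Ltc4s, Fcna, Ccl6 and Serpinb2. Prg4 stood at 1018 CPM in them and 5.42 in the rest, Alox15 at 797 and 3.50, and Cd5l at 727 and 3.70. No marker list covered these cells and no cell type is given to them here.

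The cells were then picked without Saa3, as those with 10 or more UMIs per 10000 of Prg4, Alox15, Cd5l and Fcna together, 4 genes taken from that list after its values were seen. These were 5 of 2473 low-burden cells (0.202%, 0.0657% to 0.471%) and 90 of 3033 high-burden cells (2.97%, 2.39% to 3.63%). At high burden they held 1.90% of all UMIs and stood at 21497 CPM of Saa3, with a median cell at 194 per 10000 and a range of 1.28 to 634. The 5 low-burden cells stood at 13497 CPM, from 0 to 272 per 10000, and 1 cell with 272 per 10000 made most of that value. Of macrophage genes, Adgre1, which encodes the antigen F4/80, stood at 307 CPM in the 90 cells, C1qa at 3026, Marco, which alveolar macrophages also carry, at 1476, Timd4 at 315 and Siglecf, a marker of alveolar macrophages, at 0, and the epithelial Epcam at 4.09. Without them the monocyte or macrophage class stood at 6.26 CPM of Saa3 (2 UMIs) at low burden and 102 at high burden, near the 83.4 of lymphocytes. These shares describe 1 mouse each, their intervals cover the counting of cells only, and the 4 genes came from high-burden cells. Of the 93 Saa3-rich high-burden cells, 79 were picked again by the 4 genes. The high Saa3 of the picked cells, and the lower level without them, thus follow from how the genes were chosen. Whether Saa3 per such cell differed could not be read from 5 cells.

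**Figure D4:**
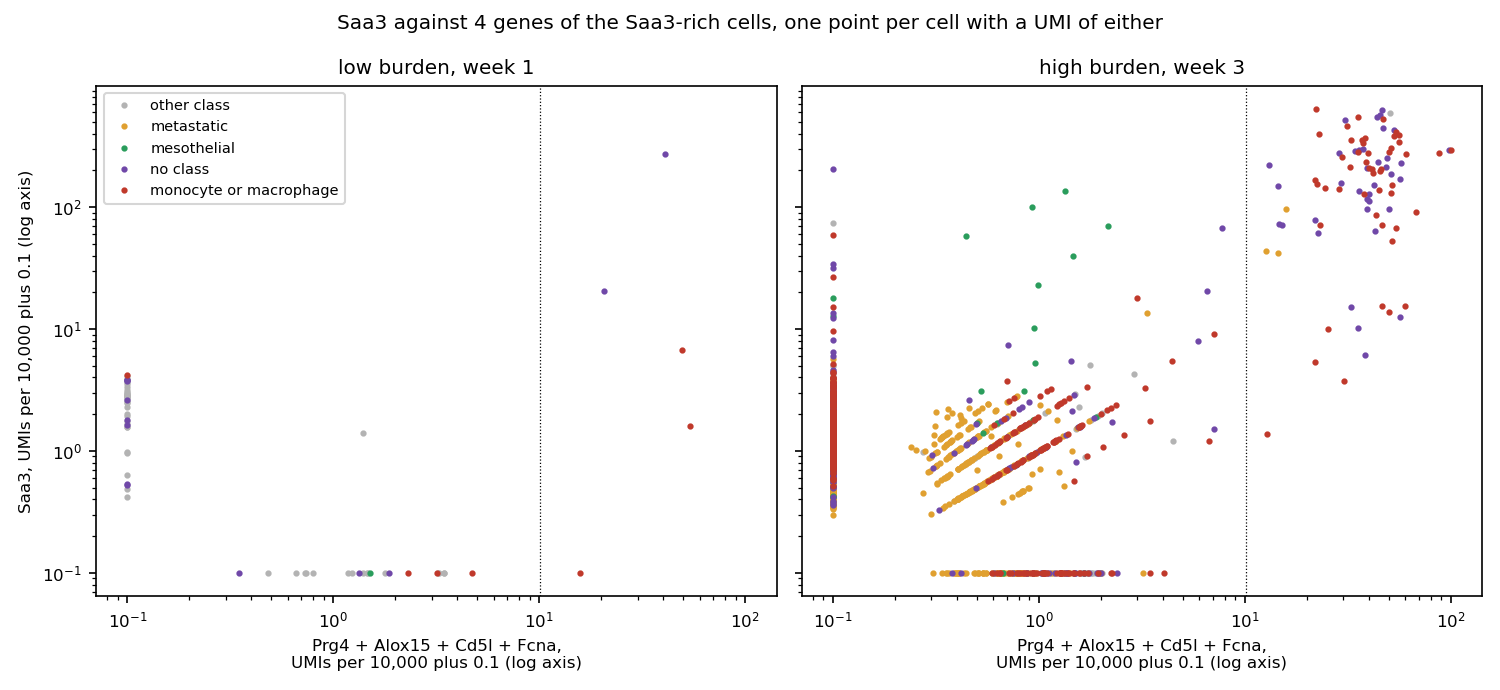
Saa3 (vertical) against the sum of Prg4, Alox15, Cd5l and Fcna (horizontal), both in UMIs per 10000 plus 0.1 on log axes, 1 point per cell with a UMI of either, by library, with the dotted line at the threshold of 10. The 90 high-burden cells right of the line have a median Saa3 of 194 per 10000, and only 5 cells lie right of it at low burden. The green mesothelial cells with high Saa3 lie left of the line.

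Slpi was also concentrated in these cells, and Trf to a lesser degree. In the 90 cells Slpi stood at 2764 CPM, Trf at 1059, Lcn2 at 254, Hp at 76.7, Cp at 63.4 and Ptx3 at 13.3. They held 78.6% of the Saa3 UMIs, 16.3% of the Slpi UMIs and 3.45% of the Trf UMIs of the library, beside 1.90% of all its UMIs.

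Slpi, the protease inhibitor, was highest in mesothelial cells in both libraries, at 2272 CPM (2045 to 2518, 22 cells) and 4614 (4460.0 to 4772, 41 cells), a log2 ratio of 1.02 (0.87 to 1.18). The low-burden level rested on few cells, 1 of which held 36.8% of the UMIs, and the mean of the single cells' CPM gave a log2 ratio of 0.06. Alveolar macrophages, at 929.9 CPM (879 to 983), held 57.6% of all low-burden Slpi UMIs and numbered only 4 at high burden, where they stood at 1080.2 CPM (699 to 1595). In AT2 cells Slpi stood at 128 and 395 CPM (1.62, 1.23 to 2.02). Thinned to 3000 UMIs, 24.8% of low-burden and 51.9% of high-burden AT2 cells had a Slpi UMI, against 4.51% and 11.1% of lymphocytes. Unthinned, the shares were 36.6% and 70.4% of AT2 cells and 5.45% and 31.7% of lymphocytes. In monocytes or macrophages Slpi stood at 108 and 236 CPM (1.13, 0.65 to 1.64), and at 75.0 and 71.3 without the Prg4, Alox15, Cd5l and Fcna cells, a log2 ratio of −0.07.

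Ptx3, which recognises microbes and matrix, was the rarest of the 7, with 64 UMIs at low burden and 3757 at high burden. At low burden 33 of the 64 lay in lymphatic endothelial cells, at 179.9 CPM (124 to 253), and 21 in fibroblasts, of which 19 were in 1 cell. The metastatic class stood at 96.2 CPM (92.8 to 99.6) and the next class of at least 20 cells at high burden, blood endothelial cells, at 22.1 (15.1 to 31.1, with 50.0% of the UMIs in 1 cell). Lymphatic endothelial cells thus had the highest low-burden level of Lcn2, Cp and Ptx3 alike. Only 2 such cells were gated at high burden, too few for a ratio. They held 15 UMIs of Lcn2, 4 of Cp and 7 of Ptx3 among 26898 UMIs. On these few UMIs their Ptx3 level lay above that of the metastatic class.

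Within the 1349 metastatic cells, each thinned to 3000 UMIs, Lcn2 varied together with Cp (Pearson r = 0.45 over cells), Trf (0.42) and Slpi (0.39), and Cp with Trf (0.41). Ptx3 gave weaker values with these 4, from 0.15 to 0.18. Saa3 and Hp, which stood at the lymphocyte level in this class, gave values between −0.05 and 0.03 with every other member. These cells share 1 mouse and 1 library, and the values describe them without a test.

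**Figure D5:**
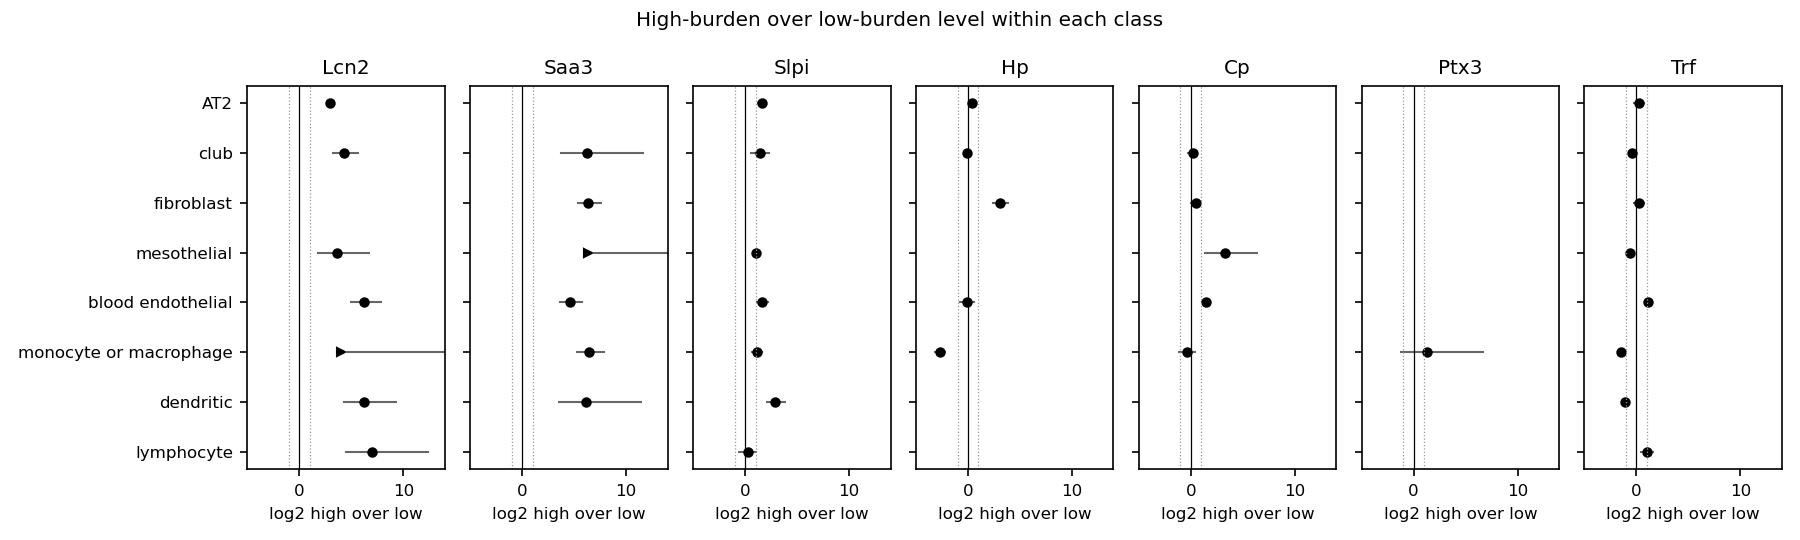
Log2 ratio of the high-burden over the low-burden level of each gene in the 8 classes with at least 20 cells in both libraries, where the gene had at least 50 UMIs in all, with exact 95% intervals and dotted lines at 2-fold. Triangles are lower bounds. Lcn2 and Saa3 lie right of the dotted line in every class shown, lymphocytes included for Lcn2, and Hp and Trf fall on both sides.

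Over the 8 classes with at least 20 cells in both libraries, 39 pairs of gene and class had at least 50 UMIs, and 17 pairs did not. Of the 39, the level was at least 2-fold higher at high burden in 25 and at least 2-fold lower in 3, Hp and Trf in monocytes or macrophages and Trf in dendritic cells. The shares of all genes past the same limit, higher and lower, give the background for each class. In AT2 cells 2 of 4 members (Lcn2 and Slpi) were higher and 0 lower, against 3.87% of all genes higher and 3.39% lower. In club cells 3 of 6 were higher and 0 lower (4.2% and 4.38%), in fibroblasts 2 of 4 and 0 (4.14% and 11.8%), and in mesothelial cells 4 of 5 and 0 (10.6% and 7.33%). In blood endothelial cells 5 of 6 were higher and 0 lower (2.43% and 2.5%), and in monocytes or macrophages 4 of 7 and 2 (14.7% and 11.6%). In dendritic cells 3 of 4 were higher and 1 lower (4.44% and 4.15%), and in lymphocytes 2 of 3 and 0 (4.53% and 8.28%). Over all cells 5 of 7 were higher and 1 lower (11.8% and 26.8%), and with the metastatic class left out 4 of 7 and 0 (6.99% and 19.7%). Since the genes were chosen with these ratios known, nothing is read from the counts.

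Many of these ratios were smaller or could not be valued once a background was subtracted. A pair could be valued if either library stayed above the level of 3 UMIs, and a level under it was set to it. With the level of the same library's lymphocytes subtracted, 16 of 31 pairs that could be valued were at least 2-fold higher and 6 lower. With the free RNA expected in each class subtracted, which was estimated from genes of other compartments, 12 of 29 were higher and 9 lower. That estimate is a median over few genes that differed widely. In high-burden AT2 cells it was 32.9% of the level over all cells (0% to 127% over 9 genes). In high-burden mesothelial cells it was 24.7% (0% to 59.3% over 10 genes). Pairs at least 2-fold higher in all of these ways included Lcn2 and Slpi in AT2 cells (log2 2.98, 2.86 and 2.66, and 1.62, 1.98 and 1.38), Saa3 in mesothelial cells (6.28, 6.19 and 6.14) and Cp in mesothelial cells (3.26, 2.32 and 1.71). The Saa3 values and the subtracted Cp values are lower bounds, with the low-burden level set to that of 3 UMIs.

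Over 22 sums of class and library, the gene whose level followed Lcn2 most closely was Cst6 (r = 0.81), and for Cp and Ptx3 the lists of the 3 closest shared Nav3 (0.78 and 0.89). Saa3 was closest to the chemokines Cxcl10 (0.91) and Ccl7 (0.85) and to PYMT (0.85), which was 0 in every low-burden class and nearly level over the high-burden classes and so marks the library, and Hp to Aldh1a7 (0.93) and Pon1 (0.92). Slpi was closest to Bst1 (0.85), Cp to Mdfi (0.82), Ptx3 to Gm6634 (0.91) and Trf to Car9 (0.75). The sums share 2 libraries and their depths, and the values are descriptions.

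Of 50 other acute-phase genes, 28 had at least 50 UMIs over all cells. Of these, 6 were at least 2-fold higher and 12 lower at high burden, against 11.8% and 26.8% of all genes. Their median log2 ratio was −0.36 beside −0.28 over all genes. Without the metastatic class 9 of 27 were higher and 3 lower, against 6.99% and 19.7% of all genes, with a median of 0.16 beside −0.29. The highest ratios were those of Saa1 (1 UMI at low burden and 804 at high burden, log2 7.70, 5.21 to 13.003) and Saa2 (0 UMIs, at least 6.10), the relatives of Saa3, and of Timp1, a metalloproteinase inhibitor (3.98, 3.77 to 4.19), which stood at 2356 CPM in high-burden fibroblasts. The lowest were Serping1, the C1 inhibitor (−2.59), Ltf, lactoferrin (−2.28), and Itih4 (−2.18), which stood at −1.41, −1.04 and −0.99 without the metastatic class. In the metastatic class the highest levels of the list were Wfdc2 at 730.5 CPM, Timp1 at 271 and Mt1 at 265. Lymphocytes stood at 73.2, 42.7 and 181 CPM for these genes. Mt1 was highest in monocytes or macrophages, at 763 CPM. In fibroblasts 7 of 14 and in mesothelial cells 7 of 11 of these genes were at least 2-fold higher and 0 lower, beside the backgrounds given above.

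Of 27 genes of the inducing signals, 26 could be valued over all cells, with 4 at least 2-fold higher, 6 lower and a median of −0.14. The shares of all genes over all cells, 11.8% higher and 26.8% lower, are the background for this list and those that follow. Lif (log2 3.90), Il6 (1.40) and Il11 (1.28), all cytokines of the gp130 family, had the highest ratios. Lifr (−1.94) and Il6st (−1.76), receptor chains of that family, and Tnfrsf1b (−1.55) had the lowest. Without the metastatic class, which holds most high-burden UMIs, Lif stood at 3.20, Il6 at 2.67, Lifr at −1.21 and Il6st at −1.47, but Il11 at 0.28 and Tnfrsf1b at −0.42. Il6 stood at 102 CPM in high-burden fibroblasts, a class of 33 cells and 275067 UMIs of all genes. How its UMIs were spread over those cells was not examined. Cebpb, Nfkbia and Stat3 had the highest metastatic levels, at 519, 503 and 85.4 CPM. In lymphocytes Cebpb was lower, at 209 CPM, while Nfkbia and Stat3 were higher, at 689.5 and 109.8. Of 29 receptors and partners of the 7 proteins, 23 could be valued, with 8 higher, 9 lower and a median of −0.46. Fcna (3.35), C1qc (3.26) and C1qb (3.10) had the highest ratios, and each had its highest class level in monocytes or macrophages. At high burden that class held 52.5% of the Fcna UMIs. Its 49 cells with much Prg4, Alox15, Cd5l and Fcna alone held 44.3%. The formyl peptide receptors Fpr1 (−3.27) and Fpr2 (−3.13), highest in alveolar macrophages at low burden, had the lowest ratios. Anxa2, Lrp1 and C1qa had the highest metastatic levels, at 1223, 191 and 109.6 CPM, beside 425 and 22.4 in lymphocytes for Anxa2 and Lrp1 and 169 for C1qa, which is thus at background in the metastatic class. Of 17 iron-handling genes 16 could be valued, with 2 higher, Slc39a14 (1.58) and Hmox1 (1.56), and 5 lower, and a median of −0.50. Without the metastatic class Slc39a14 stood at 0.94, under the 2-fold limit, and Hmox1 at 2.42. Fth1, the ferritin heavy chain, had the third highest ratio (0.85), and Heph (−2.93), Bmp6 (−2.17) and Hfe (−1.23) the lowest, of which Hfe stood at −0.12 without the metastatic class. In the metastatic class Fth1 stood at 10899 CPM, Ftl1 at 4922 and Hmox1 at 74.9, beside 3753, 2791 and 20.3 in lymphocytes.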

How the data were processed

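Reads of both libraries were processed by the authors with Cell Ranger 2.0.2 on mm10 with the PYMT sequence added. The deposited values are raw UMI counts per gene and cell. The study's methods name an aggregation step, and no source used here says whether these counts come from before it. Cells with 1000 to 7000 genes and at most 10% mitochondrial UMIs were kept. The low-burden table and the kept cells of both libraries together hold slightly more cells than the study states. Each cell was scored for 15 marker lists and assigned to the best class if the score was at least 0.1, other compartments scored under 0.5 and other classes of the compartment under 0.75 of it. Cells with markers of several compartments got no class, and no doublet caller was run. The gate's scoring rule and limits were set after the counts had been seen, and the members and gene lists were chosen with earlier results of these data known.

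UMIs were summed per class and library with Python 3.11.15, numpy 2.4.6, pandas 2.3.3 and scipy 1.17.1. Intervals are exact Poisson for levels, Clopper-Pearson for shares, and for ratios the exact binomial interval given the sum of both counts, all at 95% and for counting error only. A ratio was valued where both classes had 20 cells and the gene 50 UMIs, and counted at 2-fold. A group with 0 UMIs was set to 3 counts per class, as was any level under that after a subtraction. The ratio step was tested on simulated counts that held counting error only. That test cannot show how the intervals fare with spread between cells or mice. Named were all 7 genes in every such class, and from each list the 3 highest and 3 lowest ratios and the 3 highest metastatic levels. The 3 genes most like each member were found by the correlation of log2(CPM + 10) among genes with 200 UMIs. Saa3-rich cells, their 4 genes and the C1q split were chosen after their values were seen. One symbol of the signal list was not used, and 1 gene that the rule names is not reported here.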

Additional observations from a re-analysis of the deposited data

Results flagged for a closer look

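Hp, the hemoglobin-binding protein, had a log2 ratio of high over low burden of 3.11 in fibroblasts and −2.69 in monocytes or macrophages, in opposite directions between classes, and the difference was not tested. The fibroblast value rests on 36 UMIs in 6 of 33 high-burden cells, and the other on 49 UMIs in 82 low-burden cells, 43 of them in the 33 cells with little C1q.

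Trf, the iron carrier, had a log2 ratio of 1.12 in blood endothelial cells and −1.45 in monocytes or macrophages, and this difference was not tested either. The endothelial levels were beside those of lymphocytes in both libraries. Each group is 1 library, so no group could be searched for a single library that stood apart.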

How the results depend on the processing

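Of 472 recomputed values of single genes and classes, 380 moved by less than their counting interval, 84 moved further and 8 changed sign. The count of 25 pairs of gene and class at least 2-fold higher was 12 with the expected free RNA subtracted and 16 with the lymphocyte level subtracted (the latter chosen after seeing the data). The 3 lower pairs became 9 and 6. Of the 39 pairs, 29 and 31 stayed above the level of 3 UMIs in at least 1 library, and a level under it was set to it. These counts thus include bounds. The count of higher pairs was 22 to 25 with a stricter or looser gate, all deposited cells, no top cell, thinning, or other scalings, and 35 of 55 pairs with no filter on low counts. The sign changed for Lcn2 in mesothelial cells (−1.46) and Ptx3 in monocytes or macrophages (−1.43) with the lymphocyte level subtracted, for the latter also without the top cell (−0.35). In these the low-burden level, from 2 UMIs of Lcn2 and at most 1 of Ptx3, was set to 3 UMIs. The ratios are thus lower bounds and do not show a turn in direction. With free RNA subtracted the sign changed for Trf in blood endothelial cells (−3.53) and lymphocytes (−2.31). There the high-burden level fell below the expected free RNA and was set to 3 UMIs, so these are upper bounds. Signs also changed for Saa3 in blood endothelial cells with the looser gate (−0.92), and for Slpi in monocytes or macrophages with the stricter gate (−0.19) and without the Prg4, Alox15, Cd5l and Fcna cells (−0.074, chosen after seeing the data). What caused the Saa3 and Slpi changes was not tested. By the mean of single cells' CPM, 4 members (Lcn2, Trf, Cp and Ptx3) instead of 2 were highest in the metastatic class, and without the top cell or thinned 3 were, with Lcn2. Of other acute-phase genes, 12 lower over all cells became 3 without the metastatic class and 19 with no filter. Of signal genes, 4 higher and 6 lower became 7 and 3 without the metastatic class, and of iron genes 5 lower became 2 under median-of-ratios scaling, which shifts all genes by −0.28. No paired analysis was possible because each group is 1 library and no result comes from a test, and no replicate could be left out. In classes of few UMIs the depth limits what can be seen.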
